A study of Mus musculus with 30 samples.

Results

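Probes that tagged ribosomes concentrated in one monoamine neuron type and ran short of in the other are described here, in RNA of the mouse hindbrain on Illumina bead arrays. Of 45281 probes on the array, 10882 were detected on all 30 arrays (detection p-value under 0.01). Among these, 11 had a mean level in noradrenergic ribosome-bound RNA at least 0.8 log2 units above total hindbrain RNA and a mean in serotonergic ribosome-bound RNA at least 0.8 below it, 0.101% of the probes detected on every array. They are called the noradrenergic-high set. The opposite pattern held for 8 probes, 0.0735%, called the serotonergic-high set. These 4 group means chose the members, so they are given as a description and support nothing by themselves.

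The ribosome-bound RNA came from translating ribosome affinity purification (TRAP). Mice with the bacTRAP transgene Tg(Slc6a2-EGFP/Rpl10a)JD1538Jdd, on a mixed B6;FVB background, express the ribosomal protein Rpl10a fused to EGFP under the regulatory sequence of Slc6a2, the noradrenaline transporter. In mice of the same background with Tg(Slc6a4-EGFP/Rpl10a)JD60Jdd the fusion is under that of Slc6a4, the serotonin transporter. Every animal, controls included, carried 1 of these transgenes, each type is represented by a single line, and an antibody-captured fraction holds whatever cells the transgene marks. Adult males and females, 6 to 12 weeks old and housed at 30 °C, were injected with 100 ug per kg of lipopolysaccharide (LPS), an outer membrane component of bacteria and an inducer of fever, or with sterile PBS. The arrays comprised 8 of Slc6a2 TRAP, 7 of Slc6a4 TRAP, 7 of Slc6a2 total RNA and 8 of Slc6a4 total RNA. Groups of one line, fraction, sex and treatment had 2 arrays, 1 from each of 2 amplification batches, apart from PBS males in Slc6a4 TRAP and LPS males in Slc6a2 total RNA, with 1 each. Total RNA was taken before the precipitation in batch 1 and after it in batch 2, so the kind of total RNA and the batch cannot be told apart.

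Noradrenergic neurons of the hindbrain, the largest group of which is the locus coeruleus, make noradrenaline from dopamine, load it into vesicles and take it back up through the Slc6a2 transporter. Serotonergic neurons of the raphe nuclei make serotonin from tryptophan and take it back up through the Slc6a4 transporter. Both are small populations with axons that reach most of the brain, they share the vesicular monoamine transporter and one of their synthetic enzymes, and they are known for roles in arousal, mood, breathing and body temperature. TRAP draws RNA on tagged ribosomes from the lysate of the whole tissue. A transcript above total RNA can be one that the tagged cells hold in excess of the tissue average. A transcript below it can be one that other cells of the tissue hold in excess. Total RNA was not selected for ribosomes, so the share of a transcript that is on ribosomes also enters the difference. Abundance by cell type and ribosome loading cannot be told apart here. In bulk RNA of this kind, fewer cells with a transcript and less of the transcript per cell cannot be told apart.

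Probe IDs could not be paired with genes or sequences from the tables at hand. The leading 2 members of each set are given by ID, others by rank and, where a contrast or a choice within a batch singles them out, by ID as well, where rank 1 has the largest value of the smaller of its 2 absolute differences. For the same reason, the labelled cell types could not be checked against marker genes. Between 15432 and 23122 probes were detected per array. The PBS male of batch 2 in Slc6a2 TRAP had the lowest of these numbers.

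Among probes detected on every array, opposed differences were rare beside shared ones. That filter leaves out probes that drop below detection in one TRAP fraction, so the rarity holds for the filtered probes only. Where detection on at least 3 arrays sufficed, 47 probes had the noradrenergic-high and 97 the serotonergic-high pattern, and shared patterns were not counted at that filter. In the plane of both lines' differences between TRAP and total RNA, 1062 of the 10882 probes were at least 0.8 above total RNA in both lines and 813 at least 0.8 below it in both. Another 505 were enriched and 432 depleted in the Slc6a2 line with the Slc6a4 line in between, and 618 were enriched and 420 depleted in the Slc6a4 line with the Slc6a2 line in between. Signs were opposed at any size for 796 probes in the direction of the noradrenergic-high set and for 1195 in the direction of the serotonergic-high set.

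Rank 1 of the noradrenergic-high set, ILMN_1227951, was bright in Slc6a2 TRAP and dim in Slc6a4 TRAP, with total RNA of both lines in between. Its normalized log2 intensity ran from 10.99 to 11.66 (median 11.18) over the 8 Slc6a2 TRAP arrays and from 9.56 to 10.16 (median 9.81) over the 7 Slc6a2 total RNA arrays. In the Slc6a4 line it ran from 6.76 to 8.50 (median 8.23) over 7 TRAP arrays and from 9.33 to 9.99 (median 9.55) over 8 total RNA arrays. TRAP and total RNA did not overlap in either line. The mean was 11.24 ± 0.22 (SD, n = 8) in Slc6a2 TRAP against 9.80 ± 0.19 (SD, n = 7) in its total RNA, a difference of 1.44, and 8.09 ± 0.61 (SD, n = 7) in Slc6a4 TRAP against 9.63 ± 0.25 (SD, n = 8), a difference of -1.54. In linear terms the normalized intensity was 2.71-fold higher and 2.90-fold lower than in total RNA, on values that carry an added offset of 16, which draws folds of dim probes towards 1.

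The second noradrenergic-high member, ILMN_2502039, had the deepest serotonergic depletion of its set. It stood at 10.76 to 11.45 (median 11.07) in Slc6a2 TRAP and at 9.36 to 10.38 (median 10.03) in the total RNA of that line. In Slc6a4 TRAP it lay between 6.39 and 7.92 (median 7.61), whereas the total RNA of that line lay between 9.68 and 10.40 (median 10.06). TRAP of the lines thus lay on either side of total RNA, whose means in the 2 lines were 9.996 ± 0.34 (SD, n = 7) and 10.05 ± 0.21 (SD, n = 8). The difference from total RNA was 1.10 in Slc6a2 TRAP and -2.66 in Slc6a4 TRAP, a 6.32-fold lower intensity.

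Of the leading 2 of each set, ILMN_2460179, rank 1 of the serotonergic-high set, covered the widest span. It lay between 13.41 and 13.51 (median 13.47) on the 7 Slc6a4 TRAP arrays and between 8.89 and 10.45 (median 9.81) on the 8 total RNA arrays of that line. In Slc6a2 TRAP it ran from 6.15 to 9.22 (median 7.58), and in the total RNA of that line from 8.95 to 10.17 (median 9.73). The serotonergic arrays lay close together, the Slc6a2 TRAP arrays were widely spread, and the highest of them, the PBS female of batch 2, overlapped total RNA. Means were 13.46 ± 0.033 (SD, n = 7) in Slc6a4 TRAP and 9.63 ± 0.53 (SD, n = 8) in its total RNA, a difference of 3.83 or 14.2-fold. In the Slc6a2 line they were 7.70 ± 0.90 (SD, n = 8) and 9.68 ± 0.41 (SD, n = 7), a difference of -1.98 or a 3.95-fold lower intensity. Among the 10882 probes this member had the largest line difference of TRAP in favour of the serotonergic line, -5.76.

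Rank 2 of that set, ILMN_2639849, had its larger difference on the noradrenergic side. It stood at 6.35 to 7.82 (median 7.00) in Slc6a2 TRAP, below every total RNA array of the line, which lay between 9.46 and 10.14 (median 9.87). In the Slc6a4 line TRAP lay between 10.97 and 11.35 (median 11.20) and total RNA between 9.27 and 10.16 (median 9.95). The groups did not overlap in either line. The differences were -2.70, a 6.49-fold lower intensity, and 1.39, a 2.62-fold higher one.

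Over the whole noradrenergic-high set, the difference between TRAP and total RNA ran from 0.90 to 1.44 (median 1.10) in the Slc6a2 line and from -2.66 to -0.81 (median -0.98) in the Slc6a4 line. Serotonergic-high members ran from -2.70 to -0.92 (median -1.18) in the Slc6a2 line and from 0.82 to 3.83 (median 1.15) in the Slc6a4 line. Medians over all probes detected on every array were 0.061 and 0.12. In the noradrenergic-high set, ranks 2, 4 and 8 were depleted by more in the Slc6a4 line (-2.66, -1.63 and -1.91) than they were enriched in the Slc6a2 line (1.10, 1.01 and 0.94). Ranks 5, 6, 7 and 11 had the larger value on the enriched side (1.42, 1.36, 1.27 and 1.30 against -0.98, -0.97, -0.95 and -0.81). Among serotonergic-high members, ranks 2 and 4 leaned to the depleted side (-2.70 and -2.09 against 1.39 and 1.05) and ranks 1 and 7 to the enriched side (3.83 and 1.47 against -1.98 and -0.92).

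The other members were close to balanced. In the noradrenergic-high set the differences in the Slc6a2 and the Slc6a4 line were 1.44 and -1.54 for rank 1, 1.04 and -1.09 for rank 3, 0.90 and -0.92 for rank 9 and 0.95 and -0.85 for rank 10. In the serotonergic-high set they were -1.19 and 1.25 for rank 3, -1.17 and 1.03 for rank 5, -0.99 and 0.97 for rank 6 and -0.96 and 0.82 for rank 8. Mean levels of noradrenergic-high members ran from 9.62 to 11.88 in Slc6a2 TRAP and from 7.39 to 9.77 in Slc6a4 TRAP, with total RNA in between, at 8.39 to 10.87 and 8.39 to 10.91. Serotonergic-high members ran from 7.14 to 10.56 in Slc6a2 TRAP and from 10.29 to 13.46 in Slc6a4 TRAP, and total RNA from 9.52 to 11.55 and from 9.26 to 11.01.

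Close to the limit of 0.8 there were few probes. The last noradrenergic-high members inside it had differences of 1.30 and -0.81 and of 0.95 and -0.85. The first probes outside had 0.73 and -1.56, and 1.20 and -0.71. On the serotonergic side the last inside had -0.96 and 0.82 and the first outside -1.52 and 0.71.

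The lines' TRAP arrays never overlapped for 11 of 11 noradrenergic-high and 8 of 8 serotonergic-high members, a pattern that 5.24% of probes detected on every array had in either direction and that follows in large part from how members were chosen. The line difference of TRAP had a median of 2.20 (1.80 to 3.71) in the noradrenergic-high set and of -2.53 (-5.76 to -1.42) in the serotonergic-high set. In total RNA the lines overlapped for every member, where 0.101% of all probes did not overlap. There the absolute line difference had a median of 0.12 in the noradrenergic-high set (0.0026 to 0.34) and of 0.18 in the serotonergic-high set (0.0051 to 0.54), against 0.12 over all 10882 probes. These values come from the means that chose the members and are given as a description. Total RNA was higher in the line where TRAP was depleted for 7 of 11 and 7 of 8 members. The rule subtracts total RNA and so favours that side, and the share over all probes was not counted. The largest such value was 0.54 for rank 6 of the serotonergic-high set, whose TRAP differed by -1.42 between the lines. For that member total RNA made up part of the distance between its enrichments.

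More members of each set had TRAP and total RNA arrays free of overlap in the line where the set was enriched than in the other. In the noradrenergic-high set 9 of 11 members were free of overlap in the Slc6a2 line, 6 of 11 in the Slc6a4 line and 5 of 11 in both. In the serotonergic-high set 8 of 8 were free of overlap in the Slc6a4 line, and 5 of 8 in the Slc6a2 line and so in both. Over all 10882 probes the shares were 18.7% for the Slc6a2 and 33.4% for the Slc6a4 line, each in either direction. No share was counted for both lines together or for the members' direction alone. The overlapping noradrenergic-high members of the Slc6a4 line were ranks 5, 6, 7, 10 and 11. No test goes with these counts, since the same means chose the members.

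A TRAP and a total RNA array that match in line, sex, treatment and batch were treated as 1 mouse, which gave 14 pairs, 7 per line. Of 77 member-by-pair differences of the noradrenergic-high set, 76 were above 0 in the Slc6a2 line and 75 of 77 were below 0 in the Slc6a4 line. For the serotonergic-high set 54 of 56 were below 0 in the Slc6a2 line and 56 of 56 above 0 in the Slc6a4 line. Over all 10882 probes, 53.5% of such pairs were above 0 in the Slc6a2 line and 44.2% below 0 in the Slc6a4 line, and in the serotonergic-high direction 46.5% and 55.8% had those signs. The pairs hold the arrays whose means chose the members, so one-sided signs follow in large part from the rule. The exceptions were small in the noradrenergic-high set. Its rank 10 had a pair at -0.067 in the Slc6a2 line, and ranks 5 and 7 had pairs at 0.072 and 0.014 in the Slc6a4 line. On the serotonergic side, ranks 6 and 8 had Slc6a2 pairs at 0.27 and 0.11.

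The spread between arrays differed by set and line. Serotonergic-high members had a median SD of 0.53 (0.38 to 0.90) over Slc6a2 TRAP arrays, where they were low, and of 0.11 (0.033 to 0.22) over Slc6a4 TRAP arrays, where they were high. For all 10882 probes the medians were 0.41 and 0.21. Noradrenergic-high members had a median SD of 0.28 (0.16 to 0.59) over Slc6a2 TRAP arrays and of 0.36 (0.11 to 0.61) over Slc6a4 TRAP arrays. All 8 serotonergic-high members had the lower SD in Slc6a4 TRAP, where they were bright and where the median over all probes was lower too. In the noradrenergic-high set 6 of 11 had the lower SD in Slc6a2 TRAP, where they were bright, and 5 in Slc6a4 TRAP, where they were dim. The share of all probes with the lower SD in either line was not counted, so these counts do not tie spread to brightness.

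Members were of ordinary brightness as a group, though the sets differed. The mean level over all 30 arrays had a median of 9.30 in the noradrenergic-high set (8.57 to 10.79), with 5 of 11 members above the median of all 10882 probes, 9.41. It had a median of 10.37 in the serotonergic-high set (9.32 to 11.24), with 7 of 8 members above 9.41. Since a member had to be detected on every array, probes that vanish from one TRAP fraction could not qualify.

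Some members rose and fell together from array to array. Ranks 5, 6 and 11 of the noradrenergic-high set, picked out after their values were seen, had pairwise correlations from 0.96 to 0.99 over the 7 Slc6a2 total RNA arrays and from 0.90 to 0.96 over the 8 Slc6a4 total RNA arrays, taken on deviations from the mean of line, fraction and batch. Rank 5, for example, was at 9.18 on the PBS female and 7.94 on the LPS female of batch 1 in Slc6a2 total RNA, rank 6 at 9.82 and 8.43, and rank 11 at 9.20 and 7.85. In TRAP they correlated at 0.45 to 0.95 in the Slc6a2 line and 0.62 to 0.89 in the Slc6a4 line. Without a table of genes, it cannot be said whether these probes read the same transcript, and they are not counted as separate evidence. Further high values, also picked out after they were seen, did not hold in the other groups. Ranks 4 and 8 of that set correlated at 0.91 over Slc6a2 total RNA, where the PBS male of batch 2 was far the highest array for both. They stood at 0.29 over Slc6a4 total RNA, and at -0.77 and -0.35 over Slc6a2 and Slc6a4 TRAP. Ranks 1 and 8 of the serotonergic-high set correlated at 0.95 over Slc6a4 TRAP. They stood at 0.091 over Slc6a2 TRAP, and at -0.64 and 0.16 over Slc6a2 and Slc6a4 total RNA. Other pairs ran in either direction, so the mean over pairs was 0.23 for serotonergic-high members over Slc6a4 TRAP, between 0.016 and 0.046 in their other line and fraction groups, and between 0.037 and 0.083 in the noradrenergic-high set. The points are arrays that share batch, sex and treatment, and the values are descriptive.

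The members' differences were not of one size in the 2 amplification batches, which also differ in the kind of total RNA. Whether the sizes differ beyond the spread was not tested. Within each batch all 11 noradrenergic-high and all 8 serotonergic-high members had the opposed signs, which 2.19% and 3% of the 10882 probes had in both batches in those directions. The members were chosen on the mean of both batches, so this follows in large part from the choice. Of them, 7 of 11 and 3 of 8 were past 0.8 in both lines in both batches. Noradrenergic-high members had median differences of 1.08 and -1.31 in batch 1 and of 1.27 and -1.19 in batch 2, in the Slc6a2 and the Slc6a4 line. Serotonergic-high members had -1.64 and 1.09 in batch 1 and -1.06 and 1.30 in batch 2. Over all 10882 probes the medians were -0.0094 and 0.069 in batch 1 and 0.12 and 0.15 in batch 2. The batch term within TRAP was called for 0 of the 19 members, where 0.403% of 21863 probes were called. By line, Slc6a2 TRAP of serotonergic-high members stood higher in batch 2 by a median of 0.39 (-0.32 to 0.83), with 6 of 8 higher. Over TRAP of both lines together the median of all 10882 probes was 0.062, and their share by line was not counted.

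Total RNA taken after the precipitation in batch 2 differed from that taken before it in batch 1 by a median of -0.017 (-0.31 to 0.22) in the noradrenergic-high set and of -0.12 (-0.55 to 0.13) in the serotonergic-high set, against -0.033 over all probes. By line the shifts were larger. In the Slc6a2 line they ran from -0.58 to 0.40 in the noradrenergic-high set and from -0.47 to -0.011 in the serotonergic-high set, and in the Slc6a4 line from -0.22 to 0.45 and from -0.81 to 0.21. For rank 9 of the noradrenergic-high set, total RNA of the Slc6a2 line averaged 11.18 before and 10.60 after the precipitation, a shift of -0.58 beside a difference between TRAP and total RNA of 0.90. Its difference was 0.47 in batch 1 and 1.25 in batch 2. For the other 18 members the shift came to at most 46.6% of the difference in either line.

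The sample titles carry a letter whose meaning the labels do not give, and line and letter coincide among TRAP arrays except for letter C, which holds TRAP of both lines from LPS males of batch 2 and from PBS females of batch 1. Inside letter C the line difference had the members' side in both comparisons for 11 of 11 and 8 of 8 members, where 26.3% and 31.9% of the 10882 probes had those sides in both. These arrays were part of the means that chose the members, so the side was largely set by the choice. For ILMN_2502039 it was 3.48 and 4.37 log2 units, and for ILMN_2460179 it was -6.04 and -7.34. No letter held both TRAP and total RNA, so letter and fraction cannot be told apart.

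On that array with the fewest detected probes (Slc6a2 TRAP, PBS male, batch 2), 4 of 11 noradrenergic-high and 3 of 8 serotonergic-high members lay outside the range of the other 7 arrays of the group. Any array of a group is the lowest or highest for some probes. The share of all probes outside that range was not counted, so these counts do not set the members apart. Rank 5 of the noradrenergic-high set was at 10.60 there against 9.29 to 10.13 elsewhere, and rank 4 of the serotonergic-high set at 8.92 against 7.12 to 8.41. Without this array all 11 and all 8 stayed past 0.8 in both lines, and the Slc6a2 difference of that rank 4, which moved most, went from -2.09 to -2.21.

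Whether probes picked in this way keep their pattern in arrays that had no part in the choice was tested across the batches. The same rule was applied to the arrays of one batch alone, normalized alone, and the chosen probes were then measured in the other batch with limma, over 24449 probes in batch 2 and 24255 in batch 1. A probe counted as called where it was above total RNA in one line and below it in the other, each at a Benjamini-Hochberg adjusted p under 0.05. The members themselves were chosen on all arrays, so this is a test of the rule and of the probes chosen in a batch, 8 of 15, 6 of 20, 9 of 22 and 5 of 14 of which are members.

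Batch 1 chose 15 noradrenergic-high probes, and 12 of them had both signs and 7 were called in both lines in batch 2, where 0.227% of the probes detected on every array of batch 1 were called that way and 7.54% had the signs. With median centring in place of quantile normalization the called count was 11 of 30. For 9 of the 15 the difference between the lines' enrichments was itself called, against 1.61%. Batch 1 chose 20 serotonergic-high probes, of which 16 had both signs (10.9% of all), 8 were called in both lines (0.26%) and 10 in the difference of the enrichments (2.06%). The count called in both lines fell to 3 of 19 with median centring.

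In the reverse direction batch 2 chose 22 noradrenergic-high probes, of which 21 had both signs in batch 1 (9.61% of all), 11 were called in both lines (0.271%) and 16 in the difference (1.39%). Ranks 5, 6 and 11, which move together, were 3 of those 16 and none of the 11. The count of 11 was 18 of 34 with median centring, 7 without the PBS male of batch 1 in Slc6a2 total RNA, and also 7 without the LPS female there. Of 14 serotonergic-high probes chosen in batch 2, 13 had both signs in batch 1 (14.7%), 6 were called in both lines (0.303%) and 8 in the difference (1.27%). The count of 6 was 4 when either batch 1 female, PBS or LPS, was left out of Slc6a2 total RNA. The count of 8 in the difference was 5 without the LPS female of batch 1 in Slc6a2 total RNA and 4 without the LPS male of batch 1 in Slc6a4 TRAP. Called shares were above those of all probes in each of the 4 tests. Between 6 and 11 of the chosen probes in each test made up the calls, and the rest did not pass in both lines. The 4 tests use the same 2 batches with their roles swapped, so they are not separate from each other. Total RNA was taken before the precipitation in batch 1 and after it in batch 2, so its kind changes between choice and test. The shares of all probes are over probes not chosen for opposed differences.

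The leading probes behaved in different ways. ILMN_2675812, first among the noradrenergic-high choices of batch 2, was in batch 1 at 12.26 to 12.57 on the 4 Slc6a2 TRAP arrays, 8.93 to 9.53 on the 3 total RNA arrays, 5.52 to 6.13 on the 3 Slc6a4 TRAP arrays and 9.54 to 9.79 on the 4 total RNA arrays. No groups overlapped between TRAP and total RNA. It was higher by 3.27 (SE 0.21, limma adjusted p = 4.2e-07) in the Slc6a2 line and lower in the Slc6a4 line with a difference of -3.72 (SE 0.21, limma adjusted p = 1.5e-07). It was detected on 1 of the 3 Slc6a4 TRAP arrays of batch 1, so it is no member, and its low value there is near background. ILMN_2702425, the second choice, had differences of 1.74 and -2.96 (SE 0.34, limma adjusted p = 0.0024 and 5.0e-05) and was likewise detected on 1 of 3.

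ILMN_3062075, the second noradrenergic-high choice of batch 1 and rank 4 of the set, lay in batch 2 at 11.76 to 12.10 in Slc6a2 TRAP and 10.77 to 11.59 in its total RNA, against 9.26 to 9.29 in Slc6a4 TRAP and 10.72 to 11.29 in its total RNA. Its differences were 0.82 and -1.79 (SE 0.14, limma adjusted p = 0.00033 and 1.4e-07). The first choice, ILMN_1237546, rank 10 of the set, had 0.68 (SE 0.22, limma adjusted p = 0.019) and -0.36 (SE 0.22, limma adjusted p = 0.20) and was not called in the Slc6a4 line. Another probe of that choice, picked out after its values were seen, ran against its choice in the Slc6a2 line. It was at -3.88 there and at -3.34 in the Slc6a4 line. A further one, picked out in the same way, also ran against its choice in the Slc6a2 line. It was at -1.03 there (SE 0.36, limma adjusted p = 0.033) and at -1.47 in the Slc6a4 line. Both signs were kept by 12 of the 15 probes of that choice.

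On the serotonergic side ILMN_2460179 led or came second in both choices and was called each time. In batch 2 it lay at 13.45 to 13.51 in Slc6a4 TRAP, 8.96 to 9.79 in its total RNA, 7.32 to 9.29 in Slc6a2 TRAP and 9.02 to 10.17 in its total RNA, with differences of 4.18 and -1.48 (SE 0.31, limma adjusted p = 6.3e-08 and 0.0014). In batch 1 the differences were 3.51 and -2.60 (SE 0.32, limma adjusted p = 7.6e-06 and 9.0e-05). ILMN_2639849 had 1.06 and -2.86 in batch 1 (SE 0.17, limma adjusted p = 0.00077 and 3.3e-07). ILMN_2832979, second in the choice of batch 1, was higher by 3.06 in the Slc6a4 line of batch 2 (SE 0.44, limma adjusted p = 5.6e-05). Its value of -0.996 in the Slc6a2 line did not pass (limma adjusted p = 0.082). It ran from 5.36 to 8.50 over the Slc6a2 TRAP arrays of batch 2 and was detected on 3 of 4. Another probe of that choice, picked out after its values were seen, ran against its choice in the Slc6a2 line of batch 2. It was at 0.54 there (SE 0.20, limma adjusted p = 0.0385) and at 0.81 in the Slc6a4 line. Both signs were kept by 16 of the 20 probes of that choice.

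The study's question was how the sexes and the LPS response differ in these neurons, and the choice of members averaged over both. None of the 19 members was called for sex or LPS in any of 12 contrasts with limma. In Slc6a2 TRAP the share of all probes called was 0.00457% for sex and 0.0732% for LPS, in Slc6a4 TRAP 0.00915% and 0%, and in total RNA 0.0321% and 0.0763%. For differences of the sex or LPS effect between the lines it was 0%, and between TRAP and total RNA it was 0%, except 0.0076% for LPS in the Slc6a2 line. At such shares a count of 0 among 19 members does not set them apart, and a value that did not pass does not show that members were alike.

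For LPS, the nearest to a call was rank 8 of the noradrenergic-high set, ILMN_1244081. In Slc6a2 TRAP it lay at 11.53 to 11.96 on the 4 LPS arrays and at 10.17 to 11.37 on the 4 PBS arrays, with no overlap, and its mean was 11.76 ± 0.21 against 10.92 ± 0.56 (SD, n = 4 each). The LPS minus PBS difference was 0.84 (SE 0.19, limma adjusted p = 0.18). In Slc6a4 TRAP its difference was -0.12 (SE 0.22, limma adjusted p = 1) and in total RNA -0.15 (SE 0.15, limma adjusted p = 0.88). The difference of the LPS effects between the lines was 0.96 (SE 0.29, limma adjusted p = 1.00), and that between TRAP and total RNA of the Slc6a2 line was 1.01 (SE 0.31, limma adjusted p = 0.41). The same probe had a female minus male difference of -0.59 in Slc6a2 TRAP (SE 0.19, limma adjusted p = 0.33), with overlapping arrays.

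ILMN_3062075, rank 4, had an LPS minus PBS difference of -0.30 in Slc6a2 TRAP (SE 0.12, limma adjusted p = 0.45), from 11.66 to 11.85 after LPS against 11.87 to 12.28 after PBS. At an unadjusted p under 0.05 these were the 2 of 11 noradrenergic-high members for LPS in Slc6a2 TRAP, and 0 of 8 serotonergic-high members, where 10.3% of all probes had such a p. In Slc6a4 TRAP, where 0.933% of all probes had one, 1 of the 19 members did for LPS, ILMN_1227951. It lay at 8.15 to 8.50 on the 4 LPS arrays and at 6.76 to 8.23 on the 3 PBS arrays, with a difference of 0.64 (SE 0.28, limma adjusted p = 1). Its lowest value, 6.76, was on 1 array, the PBS female of batch 1.

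In total RNA 4 of 11 noradrenergic-high members had an unadjusted p under 0.05 for LPS, each lower after LPS, where 7.29% of all probes had one in either direction. They were ranks 5, 6 and 11, at -0.55, -0.64 and -0.52, and rank 7, at -0.37. Ranks 5, 6 and 11 follow each other almost array by array in total RNA, as described above, so the 4 are not 4 separate observations. Rank 6, ILMN_2955919, lay at 8.40 to 9.09 on the 7 LPS arrays and at 8.71 to 9.82 on the 8 PBS arrays, with a difference of -0.64 (SE 0.20, limma adjusted p = 0.42). Rank 11, ILMN_1229960, had one of -0.52 (SE 0.18, limma adjusted p = 0.50). The set's median was -0.18 (-0.64 to 0.32), against 0.0023 over all probes tested, with 3 of 11 members above 0. The serotonergic-high set had a median of -0.077 (-0.23 to 0.022) and 0 members with such a p.

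For sex in Slc6a2 TRAP, 4 of 8 serotonergic-high members had an unadjusted p under 0.05, where 10.4% of all probes did. Of these, 3 were higher in females and 1 was lower. Rank 3, ILMN_1239134, was at 9.6 to 10.26 in 4 females and 9.07 to 9.88 in 4 males (difference 0.53, SE 0.17, limma adjusted p = 0.33), and rank 2, ILMN_2639849, at 6.89 to 7.82 and 6.35 to 7.11 (difference 0.68, SE 0.24, limma adjusted p = 0.36). Rank 6, ILMN_2754222, went the other way, at 9.87 to 10.84 in females and 10.27 to 11.51 in males (difference -0.40, SE 0.14, limma adjusted p = 0.36). The sexes overlapped in all 3 of these named members. Among noradrenergic-high members 1 of 11 had such a p, rank 8 as above. In Slc6a4 TRAP, where 0.412% of all probes had an unadjusted p under 0.05 for sex, 0 of 8 serotonergic-high members did, with differences from -0.17 to 0.14, and 0 of 11 noradrenergic-high members, from -0.41 to 0.22. In total RNA 1 of 11 noradrenergic-high members had one, against 3.84% of all probes: ILMN_2502039 at -0.27 (SE 0.12, limma adjusted p = 1.00), and 0 of 8 serotonergic-high members. For the 6 contrasts of effects between lines or fractions, unadjusted p-values under 0.05 were counted in the same way. Between the lines in TRAP they were 1 of 19 members for LPS, rank 8 of the noradrenergic-high set, where 3.88% of all probes had one, and 0 of 19 for sex, where 4.09% did. Between TRAP and total RNA they were 2 of 8 serotonergic-high members for sex in the Slc6a2 line (6.59% of all probes), and 1 of 11 noradrenergic-high members each for sex in the Slc6a4 line (0.859%) and for LPS in the Slc6a2 line (7.94%). For LPS in the Slc6a4 line there were 0 of 19 (1.08%).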

How the data were processed

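The authors deposited 1 table that gives, for 45281 probes on 30 arrays, the intensity and the detection p-value. The deposited intensity values, 8.2 to 60960, were not normalized, as judged from the values, and lumi is named, with no version, in the submitters' processing notes. Scanner software is not given in the sources used here. Intensities were background-corrected with the deposited detection p-value and quantile normalized (all 30 arrays together, offset 16), on the log2 scale (neqc, limma 3.58.1, R 4.3.3). Members followed the rule in the text. The members and lists were chosen with earlier results of these data known.

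Contrasts of sex and LPS were fitted with limma (lmFit, eBayes with a trend) on probes that at least 3 arrays of a fit detected (p under 0.01), which were 21863 for the 15 TRAP arrays, 24914 for the 15 total RNA arrays and 26312 for all arrays. The fits gave every combination of line, fraction, sex and treatment its own mean, and had the amplification batch within each fraction as the replicate block, since the labels give the number as that of a shared batch. P-values were adjusted over all probes of a fit by the Benjamini-Hochberg method at 0.05, and residual degrees of freedom were 6, 6 and 12. Tests across batches used cells of line by fraction with sex and treatment as terms (10 and 8 residual degrees of freedom in batch 2 and batch 1). The number of arrays limits the precision. The design text gives 16 mice, and p-values measure the spread between these arrays. TRAP and total RNA of a mouse share that animal, which the fits of all arrays and of one batch leave out except with the mouse as a random block. The steps were tested on simulated data. Probes named by ID were the first 2 of each set, the first 2 of each choice within a batch and, per contrast, at most 2 higher and 2 lower members with the smallest p. No probe ID occurred in the gene table (0 matches), so no gene, marker list or sequence is given. No 2 columns were identical.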

Additional observations from a re-analysis of the deposited data

Results flagged for a closer look

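Single arrays stood far from the others of their line and fraction for some members. Of 76 such groups, 9 had an end array whose gap to its neighbour passed Dixon's critical value, and chance alone marks about 1 group in 20. In Slc6a2 total RNA, the PBS male of batch 2 was the lowest for rank 3 of the noradrenergic-high set, at 8.39 against 9.04 for the next, and the highest for ranks 8 and 4, at 11.29 against 10.36 and at 11.53 against 10.97. In the Slc6a4 line, the LPS female of batch 2 was the lowest for rank 8 of the serotonergic-high set in TRAP, at 11.30 against 11.51, and in total RNA, at 10.43 against 10.67, and the highest in total RNA for rank 6, at 11.44 against 11.05. In Slc6a4 TRAP, the PBS female of batch 1 was the lowest for noradrenergic-high rank 1, at 6.76 against 8.07, the LPS male of batch 2 for rank 11, at 7.00 against 7.66, and the PBS male of batch 2 was the highest for serotonergic-high rank 4, at 11.33 against 11.14.

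The enrichment over total RNA differed between the lines, by a test of that difference in arrays not used for the choice, for 9 of 15 and 16 of 22 noradrenergic-high probes and for 10 of 20 and 8 of 14 serotonergic-high probes, chosen in batch 1 and batch 2 respectively. The shares over all probes were 1.61% and 1.39%, and 2.06% and 1.27%. Ranks 5, 6 and 11 of the noradrenergic-high set, which move together, were among the 16. Leaving out single arrays of batch 1 brought the 16 down to 11 and the 8 down to 4 at the lowest.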

How the results depend on the processing

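The members kept their opposed signs in both lines for 11 of 11 and 8 of 8 probes under each of 6 other scalings. They were chosen for opposed differences on these same arrays, so the kept signs follow in large part from the choice. The share of all probes that kept such signs was not counted. The median of all probes detected on every array moved from 0.061 and 0.12 (Slc6a2 and Slc6a4 line) to -0.26 and -0.18 with TRAP and total RNA normalized separately and to 0.28 and 0.22 with median centring. The number of members depends on the settings. The noradrenergic-high set had 19 probes with median centring, 7 without background correction, 26 and 4 with limits of 0.6 and 1, and 47 where detection on at least 3 arrays sufficed. The serotonergic-high set had 24 and 5 with those limits, 97 with that detection filter and 18 in batch 1 alone. Leaving out each array gave 9 to 12 and 7 to 10. With median centring, 11 of 30 noradrenergic-high probes chosen in batch 1 were called in batch 2, 3 of 19 serotonergic-high ones, and 18 of 34 noradrenergic-high ones chosen in batch 2 in batch 1; the cause was not tested. Leaving out each array of the testing batch gave 7 to 8 and 6 to 9 calls in batch 2 and 7 to 12 and 4 to 8 in batch 1. With the mouse as a random block the counts stayed at 7, 8, 11 and 6. Making the choice in batch 2 without the PBS male of Slc6a2 TRAP, an alternative added after seeing the data, gave 11 of 21 and 7 of 17.

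With no replicate block, and in every other alternative run for the 12 contrasts of sex and LPS (336 values, of which 240 leave out an array), 0 of the 19 members were called, while all probes called numbered between 0 and 122. In groups with 1 array on one side, the remaining groups set the spread. Depth of this array type is signal over background, and probes that missed the detection limit on any array could not enter the sets. Members that passed it could still be dim. ILMN_2460179 and ILMN_2639849 went down to 6.15 and 6.35 in Slc6a2 TRAP, and ILMN_2502039 to 6.39 in Slc6a4 TRAP. Such low values limit how exactly their depletion is measured.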
